A study of Mus musculus with 12 samples.

Results

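The 9 genes described here write, copy, erase or read DNA methylation: Dnmt1, Dnmt3a, Dnmt3b, Uhrf1, Tet1, Tet2, Tet3, Mbd1 and Mbd2. They were picked by symbol from the expression table, by a rule that uses none of their values, but with earlier results of these data known. They are 9 of the 23548 gene rows left once exact copies of a row had been removed. Of the 9, 8 reached the mean of 0.5 FPKM (fragments mapped to a gene, scaled to transcript length and library size) that was required for testing. Dnmt3b, with a mean of 0.204 FPKM over all libraries, did not.

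The RNA came from whole cerebral cortex of mice at postnatal day 16, with 3 mice in each of 4 groups, all labelled as strain C57BL/6. Dnmt1 conditional knockout (CKO) mice were Olig1cre/+;Dnmt1flox/flox and Dnmt3a CKO mice were Olig1cre/+;Dnmt3aflox/flox. The littermate controls, Olig1+/+;Dnmt1flox/flox and Olig1+/+;Dnmt3aflox/flox, carried the same floxed alleles but no Cre, so each CKO group differed from its controls both in the floxed gene and in carrying the Olig1-cre allele. Olig1 is a transcription factor gene of the oligodendrocyte lineage, and Cre driven from it recombines floxed DNA in oligodendrocyte progenitor cells and their descendants, while cells of other lineages, such as neurons, are meant to keep the gene. Every value below is an average over the cells of the cortex, which in CKO mice are recombined and unrecombined cells. A smaller number of lineage cells and less RNA per cell therefore cannot be told apart.

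DNA methyltransferases add a methyl group to cytosine, mostly where it is followed by guanine (CpG). DNMT1, brought to newly replicated DNA by UHRF1, copies the pattern of the parent strand to the daughter strand, whereas DNMT3A and DNMT3B can methylate sites that carried no mark. TET1, TET2 and TET3 oxidise methylcytosine, which opens the way to its removal, and MBD1 and MBD2 belong to the proteins that bind methylated CpG and recruit repressor complexes. In the brain DNMT3A is abundant in postnatal neurons, and DNMT1 and UHRF1 are best known from dividing cells.

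The RefSeq promoters of the 3 genes whose CKO and control values were separated in at least 1 line are shown first, since CpG density is itself a property on which this machinery acts. Promoters of 7 of the 9 genes were matched in RefSeq (GRCm38.p6). For each of the 3 genes the most CpG-rich window of 250 bases before a RefSeq start that held no annotated exon is printed from 5′ to 3′ on the strand of the gene, with each CpG in capitals. Dnmt1 lies on the minus strand at chr9:20952980-20953229, Dnmt3a on the plus strand at chr12:3806730-3806979 and Uhrf1 on the plus strand at chr17:56304063-56304312.
Dnmt1: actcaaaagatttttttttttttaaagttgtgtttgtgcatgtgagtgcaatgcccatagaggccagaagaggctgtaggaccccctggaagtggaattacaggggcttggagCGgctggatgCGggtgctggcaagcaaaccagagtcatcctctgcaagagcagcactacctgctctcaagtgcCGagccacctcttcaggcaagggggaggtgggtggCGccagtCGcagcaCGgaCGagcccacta
Dnmt3a: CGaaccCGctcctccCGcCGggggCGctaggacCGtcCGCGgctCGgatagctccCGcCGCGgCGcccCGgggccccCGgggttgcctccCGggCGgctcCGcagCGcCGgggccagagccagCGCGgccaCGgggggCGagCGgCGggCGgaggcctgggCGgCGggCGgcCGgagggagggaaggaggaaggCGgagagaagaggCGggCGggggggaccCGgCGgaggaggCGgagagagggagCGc
Uhrf1: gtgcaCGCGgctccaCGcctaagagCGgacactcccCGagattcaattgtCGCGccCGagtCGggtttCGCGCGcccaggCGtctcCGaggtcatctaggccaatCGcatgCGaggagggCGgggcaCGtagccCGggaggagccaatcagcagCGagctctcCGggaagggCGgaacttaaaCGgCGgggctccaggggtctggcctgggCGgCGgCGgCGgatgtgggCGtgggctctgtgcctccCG
The Dnmt3a window held 38 CpG, more than 98.1% of the 32851 mouse promoter windows of this length, whose median was 6. The Uhrf1 window held 30, more than 94.1% of windows, and the Dnmt1 window held 7, more than 53.7%. Another RefSeq start of Dnmt1 has a window with 26 CpG, more than 90.4% of windows, which is not printed because 166 of its bases lie in annotated exons. Methylation of these windows was not measured in the values analysed here.

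The libraries were alike in depth. From the size of the smallest steps in the FPKM values, and with a fragment length of 175 bases, they held between about 39400000 and 46000000 fragments each. At this depth Dnmt3a rested on about 11716 fragments in the median library and Dnmt1 on about 2289, whereas Uhrf1 rested on about 74.3 and Dnmt3b on about 36.3. Counting error alone was then 0.924% of the value for Dnmt3a, 2.09% for Dnmt1, 11.6% for Uhrf1 and 16.6% for Dnmt3b, and it lay between 1.45% and 3.23% for the other 5 genes. These figures are estimates that take the longest annotated transcript of each gene, and they cover counting error only. They rest on 114 to 138 of the 974 to 1052 low genes with a single transcript in each library, those whose values fell on the step of 1 fragment, and the fragment length was the one that gave the highest number of such genes.

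Before the groups were compared, 2 features of single libraries were noted. Among Dnmt3a controls, the library labelled replicate 2 went against its label, with Dnmt3a at 16.9 FPKM, 56.7% of the mean of the other 2 controls and close to the CKO libraries. Olig1, of which CKO mice carry only 1 intact copy, was at 49.8 FPKM in that library, above the other 2 controls. In the Dnmt3a line, values of Dnmt3a, Uhrf1, Tet1, the methyltransferase sum and the Dnmt3a to Dnmt1 ratio are given with and without it. Most other values of that line include the library. Because it was singled out by its own Dnmt3a value, Dnmt3a values without it are a description and no test. Xist, the RNA of the inactive X chromosome, was at 46.2 to 49.4 FPKM in 3 libraries (replicate 3 of the Dnmt1 controls, of the Dnmt3a controls and of the Dnmt3a CKO group) and at 1.69 to 1.85 FPKM in all 3 Dnmt1 CKO libraries, and was below 0.1 FPKM in the remaining 6. Values of Dnmt1, Dnmt3a and Uhrf1 without the 3 libraries of high Xist are given in the closing section.

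Across the 12 libraries the mean levels fell in the order Dnmt3a (25.6 FPKM), Mbd2 (12.9), Tet3 (11.0), Dnmt1 (9.55), Mbd1 (7.35), Tet2 (4.93), Tet1 (3.17), Uhrf1 (0.529) and Dnmt3b (0.204). FPKM is a level per transcript length, so the genes can be set beside each other. Dnmt3a, the most abundant of the 9, stood above 89.3% of all gene rows, and Dnmt3b, its close relative, above 34.5%. From Dnmt3a down to Mbd1 neighbouring genes overlapped in range. Dnmt3a exceeded Mbd2 in 10 of 12 libraries, Mbd2 exceeded Tet3 in 11 and Dnmt1 exceeded Mbd1 in 11, whereas Tet3 exceeded Dnmt1 within each of the 12 libraries. Below Mbd1 no neighbours overlapped. The order of the TET genes, Tet3 above Tet2 above Tet1, thus held in every library.

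**Figure D1:**
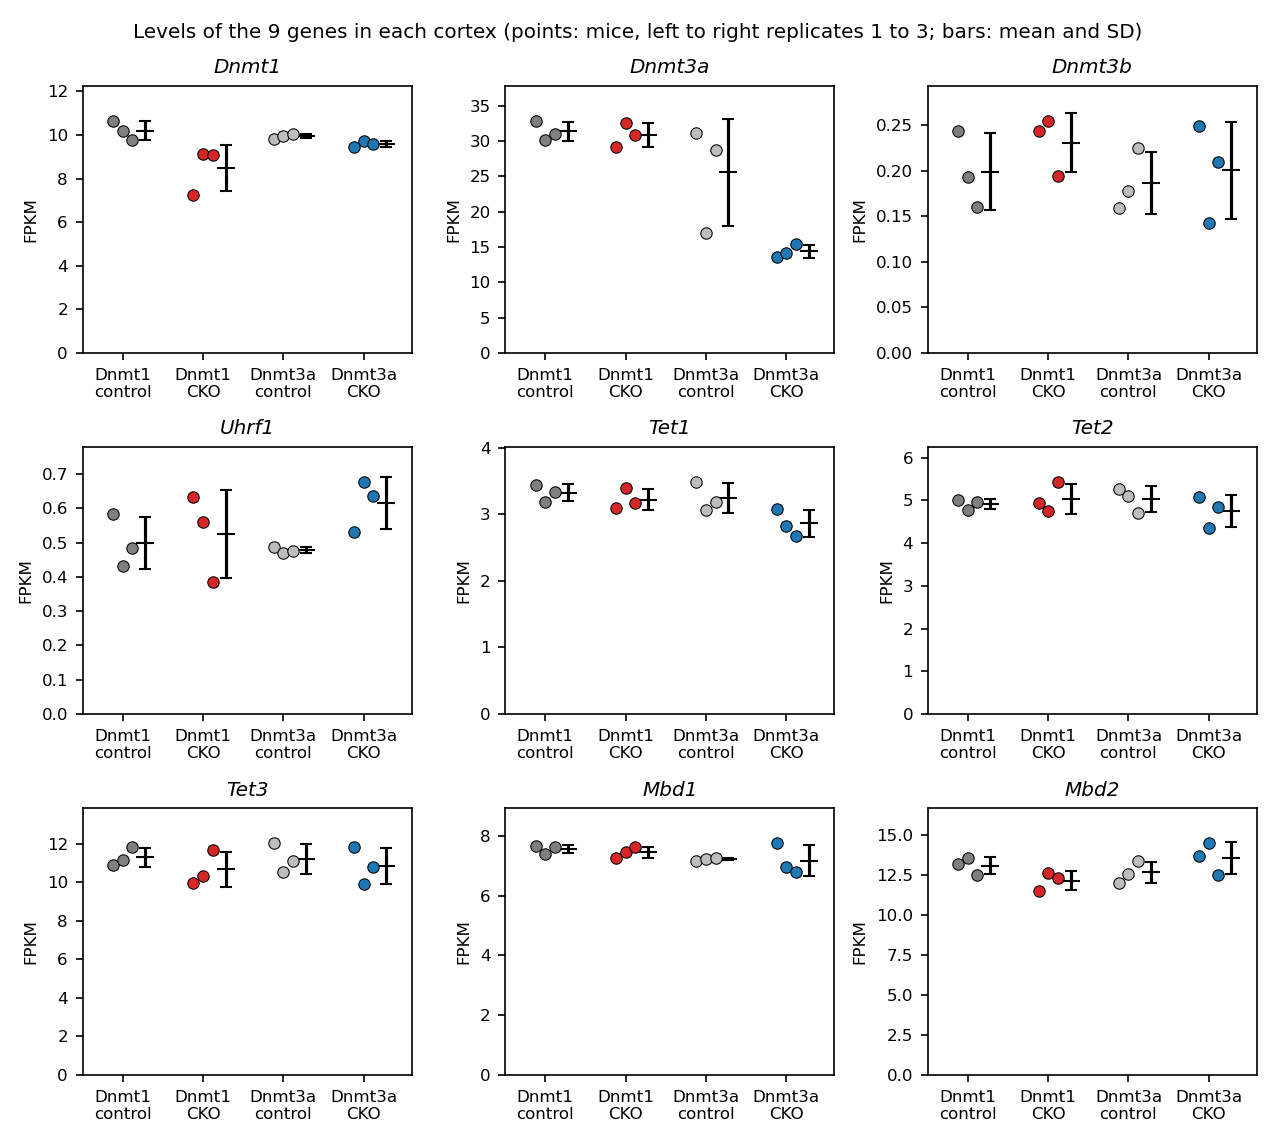
FPKM of the 9 genes on linear axes that start at 0, with 1 point per mouse and, beside the points, the group mean with its SD (n = 3). Dnmt3a is at 13.6 to 15.4 FPKM in the Dnmt3a CKO libraries and at 16.9 in control replicate 2, against 28.7 and 31.1 in the other 2 controls, while most other genes overlap between the groups.

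Dnmt1 was the first check of the Dnmt1 line. The gene spans chr9:20907209-20959888 on the minus strand (GRCm38, GENCODE M21). Dnmt1 was at 10.6, 10.2 and 9.78 FPKM in Dnmt1 controls 1 to 3 and at 7.26, 9.11 and 9.09 in Dnmt1 CKO mice 1 to 3. All CKO values were below all control values, and CKO replicate 1 was the lowest of the 12 libraries. The mean was 10.2 ± 0.435 in controls and 8.49 ± 1.06 in CKO mice (SD, n = 3 each), so that the CKO mean was 83.2% of the control mean. On the log2(FPKM + 0.1) scale the change was −0.27 (SE 0.098, 95% interval −0.51 to −0.03), with an unadjusted p of 0.0336 and an adjusted p of 0.286 (limma), which did not pass the 10% false discovery rate (FDR). The exact permutation test on the same scale gave p = 0.1, the smallest that 3 mice against 3 allow. Without CKO replicate 1 the change was −0.16 with an adjusted p of 0.38 by limma. When all 12 libraries shared 1 estimate of the spread the adjusted p was 0.0967 by limma, which passed; over all settings tried it ranged from 0.0967 to 0.493.

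Among Dnmt3a controls Dnmt1 stood at 9.83, 9.95 and 10.03 FPKM, and among Dnmt3a CKO mice at 9.44, 9.74 and 9.57. These groups were separated too, by less than 0.1 FPKM between the nearest libraries. The log2 change was −0.05 (95% interval −0.13 to 0.03), with an adjusted p of 0.756 by limma. The CKO effect on Dnmt1 in the Dnmt1 line minus that in the Dnmt3a line was −0.22 on the log2 scale (95% interval −0.45 to 0.01, adjusted p = 0.512, limma), and −0.11 without Dnmt1 CKO replicate 1 (adjusted p = 0.654, limma).

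Dnmt3a (chr12:3806007-3914443, plus strand) was the corresponding check of the Dnmt3a line. It was at 31.1, 16.9 and 28.7 FPKM in Dnmt3a controls 1 to 3 and at 13.6, 14.2 and 15.4 in Dnmt3a CKO mice 1 to 3. All CKO values were below all controls, although control replicate 2 was nearer to the CKO libraries than to its own group. The CKO mean of 14.4 ± 0.914 was 56.3% of the control mean of 25.6 ± 7.58 (SD, n = 3 each), and 48.1% of the mean of the other 2 controls. The log2 change was −0.78 (SE 0.229, 95% interval −1.34 to −0.22) with an unadjusted p of 0.0147 and an adjusted p of 0.657 by limma. Without control replicate 2 it was −1.05. In a whole-gene FPKM the exons outside the floxed part are counted too, so neither Dnmt1 nor Dnmt3a reads out the recombined fraction directly. Which cells of the cortex had less Dnmt3a RNA in the CKO mice was not tested.

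In the Dnmt1 line Dnmt3a was at 32.8, 30.2 and 31.0 FPKM in controls and at 29.2, 32.6 and 30.9 in CKO mice. The groups overlapped. The log2 change was −0.02, with an interval of −0.15 to 0.11 and an adjusted p of 0.905 (limma). The CKO effect on Dnmt3a in the Dnmt1 line minus that in the Dnmt3a line was 0.76 (SE 0.245, adjusted p = 0.247, limma). Without Dnmt3a control replicate 2 this difference was 1.03. Limma then called Dnmt3a alone of the 8 genes, where 1.69% of all tested rows were called, but this call follows from leaving out a library that was chosen by its Dnmt3a value and is no test of the difference. A stretch of 0.799% of the exon bases of Dnmt3a is shared with the antisense gene Dnmt3aos, from which an unstranded library cannot separate it.

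Dnmt3b, the second de novo enzyme, was lowly expressed in every group. Its means were 0.199 ± 0.0420 FPKM in Dnmt1 controls, 0.231 ± 0.0320 in Dnmt1 CKO mice, 0.187 ± 0.0340 in Dnmt3a controls and 0.2003 ± 0.0534 in Dnmt3a CKO mice (SD, n = 3 each). All groups overlapped. With the minimum mean lowered to 0.1 FPKM so that it could be tested, the log2 change was 0.15 in the Dnmt1 line (95% interval −0.20 to 0.50, adjusted p = 0.702, limma) and 0.06 in the Dnmt3a line (95% interval −0.37 to 0.48, adjusted p = 0.959, limma). These intervals left room for changes in either direction. Of the words of 50 bases in its transcripts, 9.81% also occur in Dnmt3c, so that its counts are uncertain to that extent.

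The 3 methyltransferases together summed to 41.7 ± 1.73 FPKM in Dnmt1 controls and 39.6 ± 2.67 in Dnmt1 CKO mice, which overlapped. Their sum in the Dnmt3a line was 35.7 ± 7.56 in controls and 24.2 ± 0.952 in CKO mice, which did not overlap; without control replicate 2, at 27.1, the control mean was 40.0. The ratio of Dnmt3a to Dnmt1 was 3.07 ± 0.102 in Dnmt1 controls and 3.67 ± 0.321 in Dnmt1 CKO mice. It was 2.57 ± 0.771 in Dnmt3a controls, with 1.70 in control replicate 2 and a mean of 3.01 in the other 2, and 1.502 in Dnmt3a CKO mice. CKO and control ratios did not overlap in either line (exact permutation p = 0.1 each, the smallest possible with 3 against 3). Such separation held for 20.8% of tested rows in the Dnmt1 line and 12.8% in the Dnmt3a line. The directions were opposite, but each ratio contains the floxed gene of its line. The ratio thus restates the changes of Dnmt1 and Dnmt3a given above and is no separate result.

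Uhrf1 encodes the partner that recruits DNMT1 to hemimethylated DNA (chr17:56303321-56323486, plus strand). It was at 0.488, 0.471 and 0.474 FPKM in Dnmt3a controls and at 0.530, 0.677 and 0.637 in Dnmt3a CKO mice. Every CKO value lay above every control. The CKO mean was 128.7% of the control mean, the log2 change was 0.30 (SE 0.0957, 95% interval 0.07 to 0.54), and the unadjusted p of 0.0199 became an adjusted p of 0.657 by limma. Without control replicate 2 the change was 0.29, and the adjusted p was 0.718 (limma). When all 12 libraries shared 1 estimate of the spread, the interval was −0.13 to 0.73 and held 0 (unadjusted p = 0.151, limma).

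In the Dnmt1 line Uhrf1 was at 0.583, 0.432 and 0.483 FPKM in controls and at 0.634, 0.559 and 0.385 in CKO mice. The lowest and the highest of these 6 libraries were both CKO mice. The log2 change was 0.05 with a 95% interval of −0.39 to 0.49 (adjusted p = 0.941, limma), and the 2 lines differed by −0.25 (95% interval −0.86 to 0.36, adjusted p = 0.813, limma). Without Dnmt1 CKO replicate 1 the difference was −0.38 and without Dnmt1 CKO replicate 3 it was −0.078, and it was −0.15 without Dnmt1 control replicate 1. The SD among Dnmt3a controls was 1.87% of their mean and that among Dnmt1 CKO mice 24.3%, against a counting error of 11.6% in a single library, so the spread of the Dnmt3a controls was below the counting error of a single library. In addition, 15.4% of its words of 50 bases also occur in other genes, nearly all in Gm5648.

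Markers of proliferating cells, a list of 12 genes, were examined beside Uhrf1 and Dnmt1 because both genes are linked to DNA replication. Their summed level was 11.0 to 12.4 FPKM in Dnmt1 controls and 10.9 to 12.8 in Dnmt1 CKO mice. Their level in the Dnmt3a line was 10.3 to 13.1 FPKM in controls and 12.4 to 13.2 in CKO mice. Both pairs of ranges overlapped, and none of the 10 markers tested passed the threshold in either line. In each line 1 of the 10 had an unadjusted p under 0.05 (limma). Of all tested rows, 15% had such a p in the Dnmt1 line and 7.35% in the Dnmt3a line. In the Dnmt3a line 9 of the 10 had a log2 change above 0, with a median of 0.16 beside 0.01 over all rows. Their part in the Uhrf1 values was not tested.

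Among the erasers, Tet1 (chr10:62804570-62908996, minus strand) was at 3.49, 3.06 and 3.19 FPKM in Dnmt3a controls and at 3.08, 2.83 and 2.68 in Dnmt3a CKO mice. Only control replicate 2 and CKO replicate 1 crossed. The CKO mean was 88.2% of the control mean, and the log2 change was −0.18 (SE 0.0849, 95% interval −0.38 to 0.03, unadjusted p = 0.0843, adjusted p = 0.676, limma). Without control replicate 2 it was −0.22, with an adjusted p of 0.727 (limma).

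In the Dnmt1 line Tet1 was at 3.44, 3.19 and 3.34 FPKM in controls and at 3.10, 3.40 and 3.17 in CKO mice. The groups overlapped, with a log2 change of −0.04 (95% interval −0.20 to 0.11, adjusted p = 0.819, limma). The effects in the 2 lines differed by 0.13 (95% interval −0.08 to 0.35), which did not pass (adjusted p = 0.704, limma).

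Tet2 (chr3:133463679-133545139, minus strand), which unlike TET1 and TET3 lacks a CXXC DNA-binding domain of its own, was at 4.91 ± 0.116 FPKM in Dnmt1 controls, 5.04 ± 0.354 in Dnmt1 CKO mice, 5.03 ± 0.298 in Dnmt3a controls and 4.75 ± 0.373 in Dnmt3a CKO mice (SD, n = 3 each). Its log2 change was 0.03 in the Dnmt1 line (95% interval −0.12 to 0.19, adjusted p = 0.863, limma). In the Dnmt3a line it was −0.08 (95% interval −0.28 to 0.12, adjusted p = 0.822, limma). CKO and control values overlapped in both lines.

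Tet3 (chr6:83362373-83459084, minus strand), the most abundant of the 3 erasers in these cortices, was at 11.3 ± 0.478 FPKM in Dnmt1 controls and 10.7 ± 0.907 in Dnmt1 CKO mice (SD, n = 3 each). Tet3 in the Dnmt3a line was at 11.2 ± 0.771 in controls and 10.8 ± 0.953 in CKO mice. The log2 changes were −0.08 (95% interval −0.25 to 0.09, adjusted p = 0.64, limma) and −0.05 (95% interval −0.25 to 0.15, adjusted p = 0.897, limma). The summed TET level was 19.5 ± 0.515 FPKM in Dnmt1 controls and 18.9 ± 1.21 in Dnmt1 CKO mice, and 19.5 ± 1.146 and 18.5 ± 1.45 in the Dnmt3a line. Within the family Tet3 stood at 3.40 times Tet1 in Dnmt1 controls and 3.31 times in Dnmt1 CKO mice. The same ratio was 3.45 in Dnmt3a controls and 3.78 in Dnmt3a CKO mice, where CKO and control values were separated (exact permutation p = 0.1, the smallest possible). The highest control ratio was 3.48 and the lowest CKO ratio 3.50. Single rows were separated in that line for 12.8% of those tested.

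Of the readers, Mbd1 (chr18:74267605-74282732, plus strand), which encodes a repressor with a methyl-CpG-binding domain, had means of 7.56 ± 0.141 FPKM in Dnmt1 controls, 7.45 ± 0.179 in Dnmt1 CKO mice, 7.21 ± 0.0418 in Dnmt3a controls and 7.16 ± 0.526 in Dnmt3a CKO mice (SD, n = 3 each). Over the 12 libraries its coefficient of variation was 4.06%, the lowest of the 9 genes, against a counting error of 2.95% in the median library. Its log2 change was −0.02 in the Dnmt1 line (95% interval −0.12 to 0.08, adjusted p = 0.869, limma) and −0.01 in the Dnmt3a line (95% interval −0.16 to 0.14, adjusted p = 0.979, limma).

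Mbd2 (chr18:70568189-70626131, plus strand), which links methylated DNA to the NuRD complex, a remodelling and deacetylase complex, was at 13.2, 13.6 and 12.5 FPKM in Dnmt1 controls and at 11.5, 12.6 and 12.4 in Dnmt1 CKO mice. It was at 12.03, 12.6 and 13.4 in Dnmt3a controls and at 13.7, 14.5 and 12.5 in Dnmt3a CKO mice. The CKO mean was thus below the controls in the first line and above them in the second, and the values overlapped in both. The log2 changes were −0.11 (SE 0.0496, 95% interval −0.23 to 0.02, adjusted p = 0.402, limma) and 0.10 (SE 0.0679, 95% interval −0.07 to 0.27, adjusted p = 0.764, limma). The difference between the lines was −0.21 (95% interval −0.40 to −0.01), with an unadjusted p of 0.0389 and an adjusted p of 0.437 (limma). Mbd1 and Mbd2 together summed to 20.7 ± 0.452 FPKM in Dnmt1 controls and 19.6 ± 0.713 in Dnmt1 CKO mice, which were separated (exact permutation p = 0.1, the smallest possible), and to 19.9 ± 0.722 and 20.8 ± 1.26 in the Dnmt3a line, which overlapped. In the Dnmt1 line the lowest control sum was 20.14 FPKM and the highest CKO sum 20.07. Single rows were separated there for 20.8% of those tested.

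**Figure D2:**
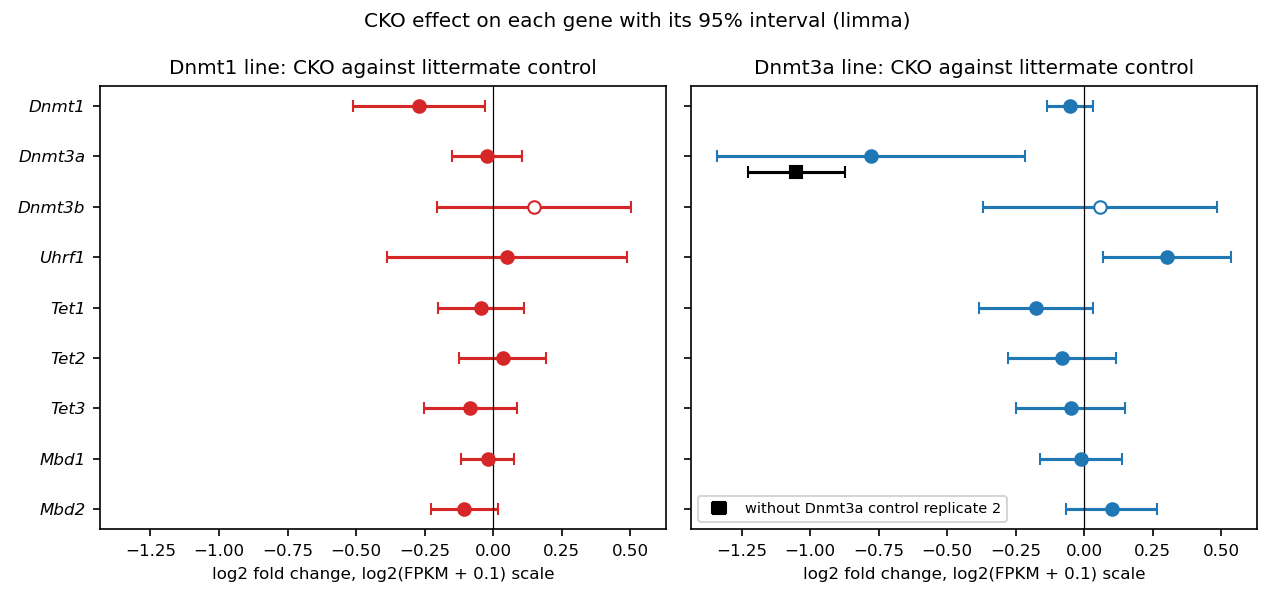
Log2 fold change of CKO against littermate control for each of the 9 genes on the log2(FPKM + 0.1) scale, with its unadjusted 95% interval from limma (n = 3 mice per group; open circles, Dnmt3b, tested with the lower minimum of 0.1 FPKM). The Dnmt1 interval in the Dnmt1 line and the Dnmt3a and Uhrf1 intervals in the Dnmt3a line leave out 0, and the square shows Dnmt3a at −1.05 without Dnmt3a control replicate 2, a description since that library was singled out by its Dnmt3a value.

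Counted together, 0 of the 8 tested genes passed the 10% FDR in the Dnmt1 line, in the Dnmt3a line or in the difference between the lines (limma). Over all 14115 tested rows 3.15%, 0.0142% and 2.13% passed in these 3 comparisons, and 4.31% passed in the Dnmt1 line when all 12 libraries shared 1 estimate of the spread, the setting in which Dnmt1 passed. At an unadjusted p under 0.05 there was 1 gene in the Dnmt1 line (Dnmt1), 2 in the Dnmt3a line (Dnmt3a and Uhrf1) and 2 in the difference (Dnmt3a and Mbd2), where 2113, 1037 and 1499 of the 14115 tested rows had such a p. CKO and control values did not overlap for 1 of 8 genes in the Dnmt1 line, where this held for 20.8% of tested rows. That gene was Dnmt1, which is floxed there. In the Dnmt3a line they did not overlap for 3 of 8 genes, where this held for 12.8%. The 3 were Dnmt3a, which is floxed there, Dnmt1 and Uhrf1. Tet1 overlapped through the crossing of control replicate 2 and CKO replicate 1. The median log2 change of the 8 genes was −0.03 in the Dnmt1 line and −0.05 in the Dnmt3a line, beside −0.02 and 0.01 over all rows.

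The near-constant levels of most of these genes stood beside a large shift of the cell type markers in the Dnmt1 line. All 12 markers of myelinating oligodendrocytes fell there (median log2 change −1.95), and their summed level was 1983 to 2306 FPKM in controls and 585 to 681 in CKO mice. Of 10 oligodendrocyte progenitor markers 5 fell past the threshold (Pdgfra, Gpr17, Neu4, Bcan and Sox6). The other 5 did not pass, among them Cspg4 at a log2 change of −0.0006 and Vcan at 0.06. Of the 10, 9 had a change below 0. All 10 together summed to 182 to 198 FPKM in controls and 149.96 to 159 in CKO mice. In the Dnmt3a line none of these markers passed, and the myelinating sum was 2522 to 3008 FPKM in controls and 2751 to 3137 in CKO mice. Of the other lists, in the Dnmt1 line 4 of 10 microglial markers and 1 of 10 astrocyte markers rose, and no neuronal or endothelial marker passed in either line. The endothelial sum was nonetheless 90.4 to 98.0 FPKM in Dnmt1 controls and 82.0 to 88.1 in Dnmt1 CKO mice, with 5 of its 10 markers at an unadjusted p under 0.05 (limma). Of all tested rows in that line, 15% had such a p and 20.8% were separated. In the Dnmt3a line the neuronal sum was 2108 to 2176 FPKM in controls and 2205 to 2273 in CKO mice, and the astrocyte sum 1234 to 1293 and 1337 to 1439, so that both were separated there without a marker passing. Single rows were separated in the Dnmt3a line for 12.8% of those tested. The neuronal markers, present as the tissue label implies, summed to 2099 to 2273 FPKM over the 12 libraries. How much of the change in Dnmt1 moved with the loss of lineage markers was not tested.

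Olig1 itself, the gene that carries Cre, was at 46.5 ± 4.46 FPKM in Dnmt1 controls and 20.3 ± 1.81 in Dnmt1 CKO mice, and at 47.4 ± 2.98 and 33.9 ± 4.33 in the Dnmt3a line (SD, n = 3 each). Its log2 change was −1.19 in the Dnmt1 line (adjusted p = 0.00431, limma) and −0.49 in the Dnmt3a line (adjusted p = 0.657, limma). The CKO values were below all controls in both lines.

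**Figure D3:**
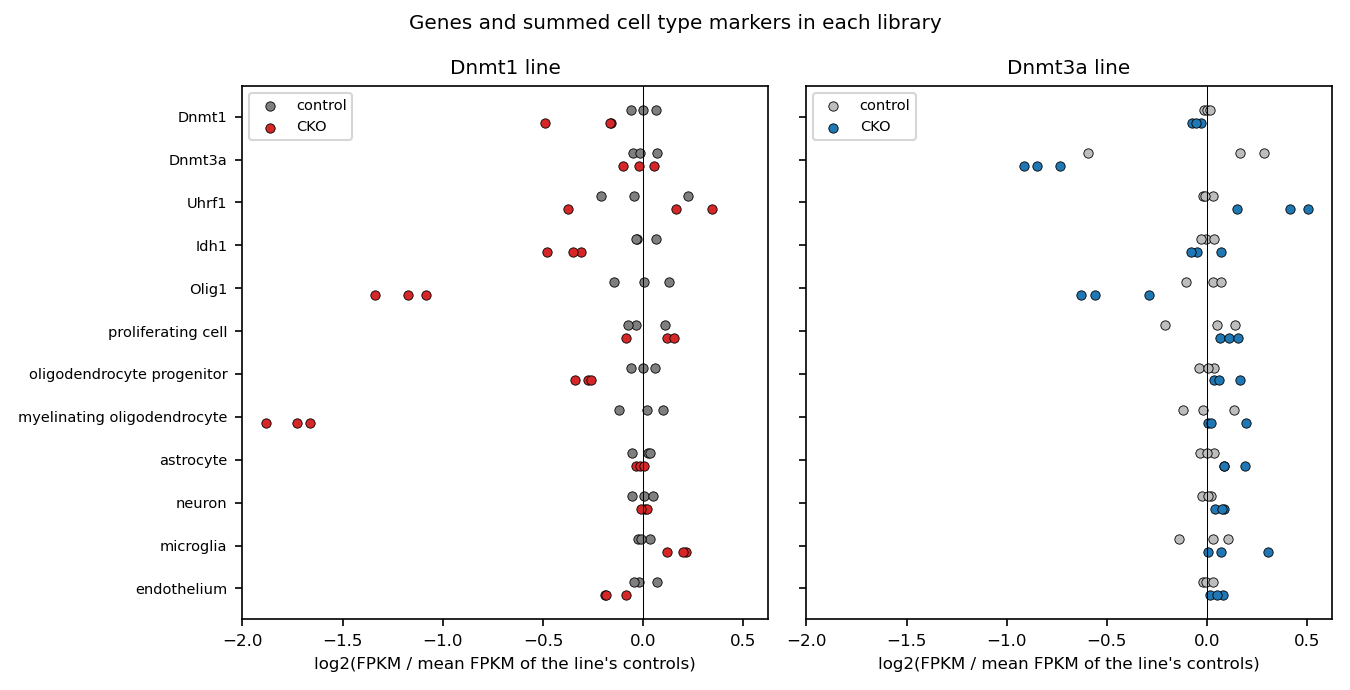
Log2 ratio of each library to the mean of its line's controls for Dnmt1, Dnmt3a, Uhrf1, Idh1 and Olig1 and for the summed FPKM of 7 lists of cell type markers, with 1 point per mouse. Myelinating oligodendrocyte markers of the 3 Dnmt1 CKO libraries lie far below their controls, whereas in the Dnmt3a line CKO and control points of that list overlap.

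Around the 9 genes, 60 further genes related to the same machinery were followed in 6 lists, and 57 of them were expressed highly enough to be tested. The 3 that were not are Dnmt3l, Dppa3 and Cdca7l. In the Dnmt1 line 1 of 57 fell and 0 rose, in the Dnmt3a line 0 passed with 5 at an unadjusted p under 0.05, and in the difference between the lines 1 passed (limma, 10% FDR). Beside these stand 3.15%, 0.0142% and 2.13% of all rows that passed, and 7.35% of all rows at an unadjusted p under 0.05 in the Dnmt3a line. The median log2 change was −0.03 in the Dnmt1 line and 0.01 in the Dnmt3a line, beside −0.02 and 0.01 over all rows.

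The 1 gene that passed was Idh1, which encodes the cytosolic isocitrate dehydrogenase that makes 2-oxoglutarate, a cosubstrate of the TET enzymes, and also NADPH for lipid synthesis. Idh1 was at 21.6 ± 0.867 FPKM in Dnmt1 controls and 16.6 ± 1.01 in Dnmt1 CKO mice (SD, n = 3 each), with all CKO values below all controls. Its log2 change was −0.38 (SE 0.0547, adjusted p = 0.0323, limma). Dnmt3a controls had Idh1 at 20.5 ± 0.458 FPKM and Dnmt3a CKO mice at 20.2 ± 1.14, a log2 change of −0.02 (adjusted p = 0.931, limma). The difference between the lines was −0.36 (SE 0.0766, adjusted p = 0.0491, limma). Over the alternatives the adjusted p by limma ranged from 0.00212 to 0.122 in the Dnmt1 line and from 0.0284 to 0.125 for the difference. It fell in the same CKO libraries as the myelinating oligodendrocyte markers, and their part in it was not tested.

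Of the genes listed as other writers and maintenance partners, 7 were tested and none passed in either line. Their median log2 changes were 0.05 in the Dnmt1 line and 0.04 in the Dnmt3a line. The most abundant were Pcna, the replication clamp that helps to hold DNMT1 at the fork, at 26.04 ± 1.38 FPKM in Dnmt1 controls and 25.3 ± 1.03 in Dnmt1 CKO mice, and Usp7, a deubiquitinase that binds DNMT1 and UHRF1, at 23.0 ± 0.981 and 22.7 ± 0.198. Dnmt3a controls had Pcna at 24.99 ± 1.13 FPKM and Dnmt3a CKO mice at 26.7 ± 1.07.

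Among the 17 demethylation and base excision genes the median log2 change was −0.06 in the Dnmt1 line and 0.0007 in the Dnmt3a line, and of these 17 Idh1 alone passed. Ogt, whose O-GlcNAc transferase binds TET proteins, was at 46.6 ± 4.75 FPKM in Dnmt1 controls and 48.1 ± 3.02 in Dnmt1 CKO mice, and Polb, the repair polymerase that fills the gap left after base excision, was at 21.6 ± 0.425 and 20.7 ± 1.18.

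The 7 genes listed as other readers of methylated CpG, not all of which bind it, had median log2 changes of −0.04 and −0.01 in the Dnmt1 and Dnmt3a lines. None passed. Mbd3, a NuRD subunit that binds methylated DNA poorly in mammals, was at 28.02 ± 1.49 FPKM in Dnmt3a controls and 30.7 ± 0.908 in Dnmt3a CKO mice, a log2 change of 0.13 with an adjusted p of 0.657 (limma). In the Dnmt1 line Mbd3 was at 29.6 ± 1.39 and 28.5 ± 1.59.

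None of the 5 readers of unmethylated CpG passed (median log2 changes −0.05 and −0.02). The 2 most abundant were Cxxc1 and Kdm2a, at 11.9 ± 0.328 and 10.9 ± 0.391 FPKM in Dnmt1 controls and at 11.5 ± 0.471 and 10.4 ± 0.140 in Dnmt1 CKO mice. Nor did any of the 11 NuRD partners pass (medians −0.01 and 0.03), among them the remodeller Chd3, at 100.9 ± 4.57 FPKM in Dnmt1 controls and 101.2 ± 0.995 in Dnmt1 CKO mice, and the histone-binding subunit Rbbp7, at 42.6 ± 3.73 and 42.4 ± 1.49. The 10 genes of the S-adenosylmethionine cycle, which supplies the methyl donor, had medians of 0.01 in both lines and none passed. Mat2a, the catalytic subunit of the enzyme that makes S-adenosylmethionine, was at 46.3 ± 1.26 FPKM in Dnmt1 controls and 45.4 ± 0.278 in Dnmt1 CKO mice, and its partner Mat2b at 47.2 ± 1.20 and 48.0 ± 0.713.

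**Figure D4:**
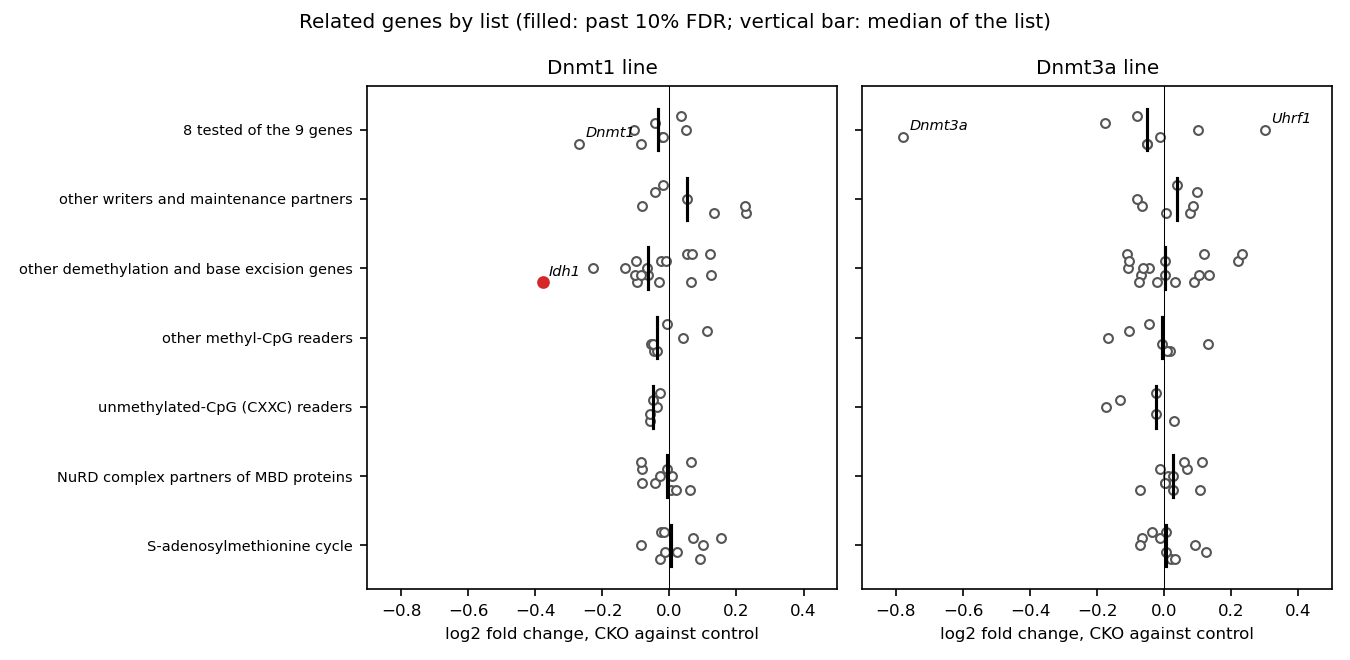
Log2 fold change of CKO against control for the 8 tested genes and for the 57 tested genes of 6 related lists, with 1 circle per gene, a vertical bar at the median of each list and filled circles for genes past the 10% FDR in limma. Idh1 at −0.38 in the Dnmt1 line is the only filled circle, and Dnmt3a at −0.78 lies farthest to the left in the Dnmt3a line without passing.

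The genes whose log2 levels followed each of the 8 most closely over the 12 libraries were sought among genes whose mean reached 1 FPKM. For Dnmt1 they were Ppm1l (Pearson r = 0.93), Jarid2 (0.93) and Abhd5 (0.90). For Dnmt3a they were Chl1 (0.95), Pcdhga11 (0.95) and L1cam (0.94). In the Dnmt3a line the mean of Chl1 was 29.9 FPKM in controls and 26.4 in CKO mice, and that of L1cam 36.0 and 32.5. Dnmt3a values fall into a low cluster of the 3 Dnmt3a CKO libraries with control replicate 2 and a high cluster of the other 8, so these coefficients mainly set the clusters apart.

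For Uhrf1 the closest were Cox10, Atp6v1g1 and Mrps17, each at 0.84. Those of Tet1 were Tmem178b (0.94), Scaper (0.92) and Cntn1 (0.90), and those of Tet2 were Csmd1 (0.91), BC005561 (0.90) and Kcnh5 (0.88). Tet3 was followed by Phldb2 (0.89), Mll1 (0.85) and Kdm6b (0.85), Mbd1 by Pcdhb18 (0.89), Sdad1 (0.88) and Gpr19 (0.88), and Mbd2 by Msl2 (0.93), Cd63 (0.92) and Cox17 (0.90). These coefficients are the highest over all such genes in the same 12 libraries, the points share genotype and library, and they are given as a description only.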

How the data were processed

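Poly(A) RNA of 12 cortices was sequenced on an Illumina HiSeq instrument from TruSeq libraries. The authors aligned reads with TopHat and computed FPKM with Cufflinks on mm10, and the deposited FPKM values of all 12 libraries were used. Versions are not given in the sources used here. FPKM is scaled to each library's total and does not keep counts. Of 23850 rows, 302 exact copies were removed, and 120 to 136 rows per library were listed at 0 although their mean exceeded 5 FPKM. None of the 9 genes was at 0. All 12 value columns matched a labelled sample.

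Values were tested as log2(FPKM + 0.1) where the mean reached 0.5 FPKM (14115 rows, 14075 symbols) with limma 3.58.1 in R 4.3.3, with trended eBayes and Benjamini-Hochberg adjustment at 10% FDR. CKO was compared with control within each line, and the difference of both effects over all 12 libraries. A pseudocount understates fold changes of low genes. Scripts were tested on simulated data. The labels call the mice biological replicates. The 9 genes, the lists and the tests were chosen with earlier results of these data known. Named genes were the 9 genes, Olig1, related genes past the threshold, the 2 most abundant of each list and the 3 genes most correlated with each tested gene. The values of 1 gene named by this rule are not reported here. Positions come from GENCODE M21, and words of 50 bases shared between transcripts marked copies. Alternatives changed the pseudocount, filter, scaling, eBayes settings, replicate block, Xist covariate and the libraries used.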

Additional observations from a re-analysis of the deposited data

Results flagged for a closer look

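The CKO effect on Idh1 differed between the lines by −0.36 on the log2 scale (adjusted p = 0.0491 for the interaction, limma), with a fall of 0.38 in the Dnmt1 line, where all 3 CKO libraries were below all controls, and −0.02 in the Dnmt3a line, where the groups overlapped. This difference no longer passed without Dnmt1 control replicate 1, Dnmt3a control replicate 1 or 2, or Dnmt3a CKO replicate 2. Idh1 was the only call among 57 related genes in this comparison, where 2.13% of all tested rows were called. The call is thus no result about the related genes as a set.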

How the results depend on the processing

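In limma, the 8 tested genes had 0 calls in every comparison under all alternatives but 2. With all 12 libraries in 1 model, 1 gene (Dnmt1) passed in the Dnmt1 line, and over the fits without single libraries the count for the difference between the lines was 0 to 1, with Dnmt3a called without Dnmt3a control replicate 2, a library singled out by its own Dnmt3a value, so that this call is no test. Of the 57 related genes, the single call, Idh1, was lost in the Dnmt1 line without Dnmt1 control replicate 2 or Dnmt1 CKO replicate 2 (range without single libraries 0 to 1), and for the difference between the lines without any of 4 libraries (0 to 1) and with the libraries of low Xist alone (0), an alternative chosen after seeing the data. With low Xist alone, Dnmt1 in the Dnmt1 line was at −0.30 (95% interval −0.60 to 0.0019), and in the Dnmt3a line Dnmt3a was at −0.72 (−1.59 to 0.14) and Uhrf1 at 0.27 (−0.07 to 0.61), so all 3 intervals then held 0. Fewer libraries entered these fits, and the cause of the losses was not otherwise tested. Replicate numbers are shared between the groups, and deviations of same-numbered mice from their group means correlated between −0.079 and 0.035. Such a check with 3 mice per group cannot exclude a shared litter or preparation, so whether the numbers pair the mice is not known. With a replicate block 0 of the 8 genes passed in each comparison, and the related genes gave 1 call in the Dnmt1 line and 1 in the difference; over all rows the block moved the calls from 444 to 162 in the Dnmt1 line.

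Signs turned only for values near 0, and the cause was not tested. In the Dnmt1 line, Dnmt3a was at 0.0015 log2 with median-ratio rescaling, 0.0044 with quantile normalization and −0.060 to 0.018 without single libraries. Uhrf1 was at −0.0082 with quantile normalization and −0.076 to 0.223, Tet2 at −0.020 to 0.075 and Mbd1 at 0.0022 with median-ratio rescaling. In the Dnmt3a line without single libraries, Tet3 ranged from −0.114 to 0.011, Mbd1 from −0.070 to 0.027 (0.030 with low Xist alone) and Idh1 from −0.067 to 0.0086 (0.026). For the difference between the lines, Tet3 ranged from −0.100 to 0.031 (0.0051 with low Xist alone) and Mbd1 from −0.047 to 0.050, with 0.024 under median-ratio rescaling and 0.011 under quantile normalization. Of the other values for single genes, 586 kept their direction and side of the threshold, 9 lost and 2 gained a call. Many of these could not turn. The filters, eBayes settings, replicate block, shared model of 12 libraries and a stricter FDR leave the fold change as it is. In the Dnmt1 line, low Xist alone repeats the fit without Dnmt1 control replicate 3. The counts are therefore no measure of robustness. Depth limited Uhrf1 and Dnmt3b most.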
